A study of Mus musculus with 6 samples.

Results

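Connexins are the 4-pass membrane proteins that build gap junctions, and 6 of their genes are described here across 6 RNA-seq libraries of cells sorted as cancer-associated fibroblasts: Gja1, Gja4, Gja5, Gjb2, Gjb5 and Gjc1. They were taken by symbol from a count table of 18197 genes, as connexins of mesenchymal, mural and epithelial cells, and all 6 were present. They were picked with the difference between the genotypes in view, so their levels and fold changes are a description and no test of them is read. The libraries came from C57BL/6 mice that all carried the polyoma middle T oncogene (PyMT), which drives mammary tumours, and tumours were taken after 16 to 20 weeks. Of the 6 libraries 3 carried the label WT and 3 the label mPGES-1 KO, a genotype named for loss of microsomal prostaglandin E synthase-1, which makes prostaglandin E2 (PGE2). Neither the promoter of the transgene, nor whether the deletion was limited to a cell type, nor how many animals went into a library is given in the sources used here.

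Connexin subunits assemble in rings in the membrane, and rings of neighbouring cells dock into channels that pass ions and small molecules such as cAMP from cell to cell. Gja1 encodes Cx43, the most widely expressed connexin, found in fibroblasts, smooth muscle and myoepithelium. Gja4 (Cx37), Gja5 (Cx40) and Gjc1 (Cx45) are best known from blood vessels and heart, in endothelium, smooth muscle and pericytes, which together with smooth muscle are called mural cells. Gjb2 (Cx26) belongs to secretory epithelia, among them the luminal cells of the mammary gland, and Gjb5 to stratified epithelia such as skin.

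The libraries held between 23013498 and 43648450 counts, and the floor for a gene without reads, set at 3 counts, was worth 0.0683 to 0.126 CPM (counts per 1e6 of the library size after TMM scaling). Ptges, the gene of mPGES-1, went against the labels: it stood at 31.9, 19.2 and 27.9 CPM in WT replicates 1 to 3 but at 186, 137 and 129 CPM across mPGES-1 KO replicates 1 to 3 (26.3 ± 6.49 and 150.3 ± 31.1 CPM, SD, n = 3 each). Counts per gene cannot show whether part of Ptges is deleted, so the groups are called by their labels and every direction below is drawn from them. The 11 fibroblast markers measured summed to between 9042 and 26495 CPM with the WT label and to between 6257 and 17347 CPM with the mPGES-1 KO label, and none was at 0. Their median log2 fold change was -1.02, with 7 negative and 4 positive: the collagen gene Col1a1 was at 3897 ± 2765 and 688 ± 453 CPM without overlap and did not pass (adjusted p = 0.1003 by edgeR's quasi-likelihood test), while Dcn, a matrix proteoglycan gene, was at 4320 ± 2793 and 5805 ± 2817 CPM. By that test 1 of the 11 was called higher, 1 lower and 9 did not pass an adjusted p of 0.05. Over all genes 1.2% were called higher and 1.56% lower. No fibroblast marker was called higher once any single library was left out. None was called lower without WT replicate 2, mPGES-1 KO replicate 2 or mPGES-1 KO replicate 3. Markers of other cells were present too. The 14 pericyte and smooth muscle markers summed to between 3398 and 8079 CPM in the libraries labelled WT and to between 205 and 427 CPM in the group labelled mPGES-1 KO. The 18 luminal epithelial markers measured summed to between 7218 and 13392 CPM against between 35303 and 51867 CPM. The 12 endothelial markers measured summed to between 143 and 266 CPM against between 29.6 and 188 CPM, and 4 of them, Cdh5, Tie1, Sox17 and Sox18, were at 0 counts in at least 1 library. The 8 leukocyte markers measured summed to between 184 and 537 CPM against between 269 and 1117 CPM, with Ptprc, the pan-leukocyte CD45 gene, at 6.71 ± 2.65 and 32.4 ± 23.9 CPM without overlap. In sorted cells measured in bulk, fewer cells of a type and less RNA per cell cannot be told apart.

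The connexin transcripts of the 2 groups differed in kind. Gja4 and Gjc1 made up most of them with the WT label and little in the group labelled mPGES-1 KO, where Gja1 and Gjb2 were higher. Of the 6 genes, 5 had enough counts to be fitted and Gja5 had not. In all 5 the 3 libraries of a group lay to one side of the other group, 3 higher (Gja1, Gjb2, Gjb5) and 2 lower (Gja4, Gjc1) in the libraries labelled mPGES-1 KO. The groups did not overlap in 27.9% of the 16543 genes tested, 12.2% higher and 15.7% lower. Gjc1 was the single one of the 5 with an adjusted p under 0.05 in edgeR's quasi-likelihood test, a threshold passed by 2.76% of all genes. That call was lost without mPGES-1 KO replicate 2 or mPGES-1 KO replicate 3, where 0 of all genes were called lower. Nothing is read from these counts because the genes were chosen on this contrast.

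**Figure D1:**
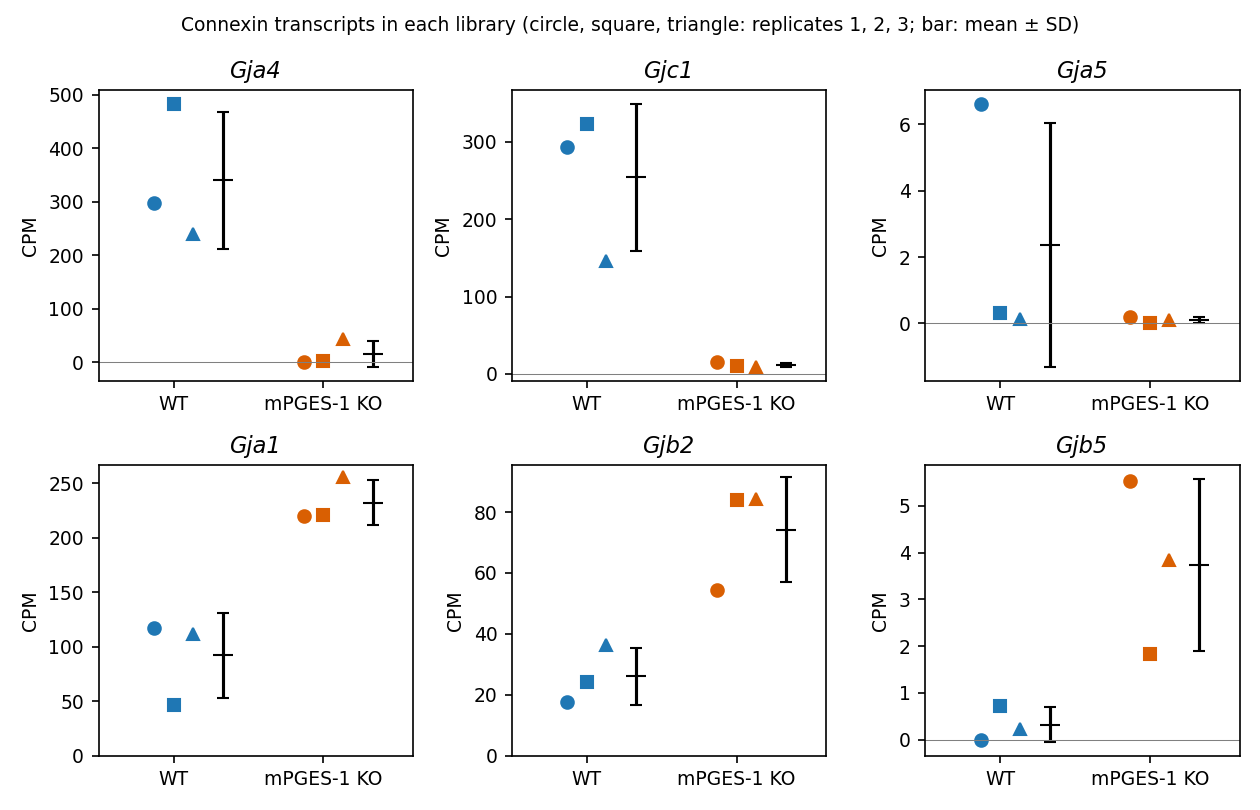
CPM of each connexin gene in each library, by labelled genotype. Points are libraries, and bars to their right are the mean ± SD of 3. Gja4 and Gjc1 lie above 145 CPM in the libraries labelled WT and below 45 CPM in the group labelled mPGES-1 KO, Gja1, Gjb2 and Gjb5 lie higher in the latter, and Gja5 is above 1 CPM in WT replicate 1 alone.

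The stretches just before the starts of 3 of these genes are shown because Gja4 lay on the opposite side of the contrast from Gja1 and Gjb2. Each is the 250 bases before the start in RefSeq (GRCm38.p6), 5′ to 3′ on the strand of the gene. RefSeq windows were matched for 5 of the 6 genes, and Gjc1 had none matched. The Gja4 window is chr4:127314040-127314289 on the minus strand, that of Gja1 chr10:56377050-56377299 on the plus strand, and that of Gjb2 chr14:57104703-57104952 on the minus strand. Capitals mark matches on either strand to TGACG, the half-site of the cAMP response element, to TGANTCA, the AP-1 motif, and to GGGCGG, the GC box. The letters TGGGAA, the core that the Notch partner RBPJ binds, were searched too.
Gja4: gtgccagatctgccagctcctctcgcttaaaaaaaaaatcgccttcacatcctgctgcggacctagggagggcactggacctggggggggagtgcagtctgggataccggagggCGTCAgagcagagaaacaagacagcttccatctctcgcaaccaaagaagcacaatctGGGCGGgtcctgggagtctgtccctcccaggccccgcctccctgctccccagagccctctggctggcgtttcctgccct
Gja1: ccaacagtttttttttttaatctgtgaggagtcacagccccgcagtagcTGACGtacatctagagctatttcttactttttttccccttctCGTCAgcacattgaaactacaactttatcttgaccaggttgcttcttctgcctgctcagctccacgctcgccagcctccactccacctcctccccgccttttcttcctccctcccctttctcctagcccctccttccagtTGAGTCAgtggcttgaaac
Gjb2: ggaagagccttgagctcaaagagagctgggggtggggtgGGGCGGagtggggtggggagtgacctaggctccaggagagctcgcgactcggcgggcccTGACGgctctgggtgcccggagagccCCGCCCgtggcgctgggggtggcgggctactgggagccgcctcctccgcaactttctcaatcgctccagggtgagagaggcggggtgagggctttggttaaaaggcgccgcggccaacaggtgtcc
The cAMP half-site was in all 3 windows, with 2 matches in that of Gja1, and also in that of Gja5. It was not found in the window of Gjb5, which held none of the 4 motifs. It occurred in 17.8% of all 32851 RefSeq windows of this length. The Gja1 window alone of the 5 held the AP-1 motif, at 19 to 13 bases before the start, and 6.75% of all windows held one. A GC box was in the windows of Gja4 and Gja5 (1 each) and Gjb2 (2), and in 32.7% of all windows, while TGGGAA was in none of the 5 and in 21.6% of all. None of these motifs overlapped another in the 5 windows. A match gives the letters of a window and says nothing on which factor was bound.

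Gja4 was abundant with the WT label and at or near 0 in 2 of the 3 libraries with the other label. Its level was 297, 483 and 239 CPM in WT replicates 1 to 3, and 0, 1.38 and 43.9 CPM across mPGES-1 KO replicates 1 to 3. The libraries labelled WT were within 2.02-fold of each other, whereas those labelled mPGES-1 KO held 0, 33 and 1549 reads, so that replicate 3 carried 97.9% of the counts of its group. The means were 340 ± 127 and 15.1 ± 24.9 CPM, a log2 fold change of -4.49 ± 1.77 (SE), or 22.5-fold lower. Without mPGES-1 KO replicate 3 the log2 fold change was -8.96.

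Gjc1 was lower by a like factor but far more evenly. It reached 294, 323 and 146 CPM in the libraries labelled WT and 15.3, 10.1 and 9.49 CPM in the group labelled mPGES-1 KO. Even the nearest libraries of the groups stood 9.56-fold apart. On average Gjc1 was at 254 ± 95.1 and 11.6 ± 3.18 CPM, a log2 fold change of -4.45 ± 0.42 (SE), or 21.9-fold lower. As each library was left out it stayed between -4.74 and -4.19.

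Gja4 and Gjc1 did not keep a fixed ratio to each other. There were 1.01, 1.495 and 1.64 Gja4 reads for each Gjc1 read in WT replicates 1 to 3. In mPGES-1 KO replicates 1 to 3 the ratio was 0, 0.138 and 4.62, thus below every library labelled WT in the first and second and above all of them in the third. The pericyte markers in the same libraries were uneven too. Kcnj8, a subunit of the ATP-sensitive potassium channel of mural cells, was at 6.91, 16.2 and 77.6 CPM across mPGES-1 KO replicates 1 to 3, highest in the library that held most Gja4, while Rgs5, a regulator of G protein signalling, was at 119.6, 49.9 and 92.7 CPM. Among the 14 markers of pericytes and smooth muscle 8 fell and 0 rose, with 6 that did not pass, where 1.56% of all genes fell, against a median log2 fold change of -0.04 over all genes. The number that fell was 0 without WT replicate 2, mPGES-1 KO replicate 2 or mPGES-1 KO replicate 3. The median of that list was -4.04, and none of its genes was at 0 in any library. Its part in the Gja4 and Gjc1 levels was not tested.

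Gja5, the other vascular connexin, was nearly absent. It held 291 counts in WT replicate 1 and between 0 and 13 in each of the other 5 libraries. WT replicate 1 stood at 6.63 CPM, WT replicates 2 and 3 at 0.327 and 0.137 CPM, and the libraries labelled mPGES-1 KO at 0.183, 0 and 0.113 CPM. A single library thus carried 94.2% of the counts of the WT group, and the groups overlapped. Endothelial markers did not share 1 order over the libraries labelled WT. In WT replicates 1 to 3 the sialomucin gene Emcn stood at 83.3, 42.8 and 2.72 CPM, highest where Gja5 was, whereas Plvap, of fenestrated endothelium, stood at 39.8, 154 and 148 CPM and the 12 markers summed to 143, 266 and 189 CPM, both lowest there. The part of endothelial RNA in the Gja5 level was not tested. Some of the Gja5 reads may belong elsewhere: 14.0% of all read-length windows (75 bases) of its transcripts also occur in transcripts of Zfp697 or Gpr89, the latter overlapping 2.87% of its exonic bases on the opposite strand. For the other connexins here no such window was shared with another gene.

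Gja1, the connexin of most cell types, was higher in each library with the mPGES-1 KO label. Its level was 118, 46.9 and 112 CPM in WT replicates 1 to 3 and 220.4, 220.7 and 256 CPM across mPGES-1 KO replicates 1 to 3. The latter varied by 8.79% (coefficient of variation) and the former by 42.6%, with WT replicate 2 the lowest of all. The means were 92.1 ± 39.2 and 232 ± 20.4 CPM, a log2 fold change of 1.33 ± 0.37 (SE), or 2.52-fold higher. WT replicate 2 was also the library with the least Dcn (1149 CPM) and the most pericyte marker RNA (8079 CPM). Fibroblast markers did not share that order. Col1a1 was at 3547 CPM in WT replicate 2, 1324 CPM in WT replicate 1 and 425 to 1211 CPM with the mPGES-1 KO label. The fibroblast marker sum was lowest in mPGES-1 KO replicate 2 (6257 CPM), where Gja1 was at 220.7 CPM. The part of fibroblast or pericyte RNA in the Gja1 level was not tested. Left out, WT replicate 2 brought the log2 fold change of Gja1 to 1.07.

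Gjb2, the luminal connexin, was higher in every library labelled mPGES-1 KO. It stood at 17.6, 24.2 and 36.3 CPM in WT replicates 1 to 3 and at 54.3, 84.0 and 84.4 CPM across mPGES-1 KO replicates 1 to 3. The lowest of the latter was 1.497-fold above the highest of the former. The means were 26.0 ± 9.47 and 74.3 ± 17.3 CPM, a log2 fold change of 1.51 ± 0.37 (SE), or 2.85-fold higher. Of 18 luminal markers tested, 6 rose, 0 fell and 12 did not pass, with a list median of 1.97, where 1.2% of all genes rose. The number that rose was 3 without WT replicate 3 and 0 without WT replicate 2, mPGES-1 KO replicate 2 or mPGES-1 KO replicate 3, and 10 without WT replicate 1. Krt18, a keratin of simple epithelia, rose from 1038 ± 240.5 to 4958 ± 132 CPM, and the surface glycoprotein gene Epcam from 484 ± 147 to 4443 ± 615 CPM (adjusted p = 0.0177 and 0.0143 in edgeR's quasi-likelihood test), calls lost as well without WT replicate 2, mPGES-1 KO replicate 2 or mPGES-1 KO replicate 3. Among these markers Foxa1 alone was at 0 in a library, and the part of luminal RNA in the Gjb2 level was not tested.

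Gjb5 was low throughout. Its counts were 0, 29 and 8 in WT replicates 1 to 3 and 151, 44 and 136 in mPGES-1 KO replicates 1 to 3, or 0, 0.729 and 0.220 CPM against 5.52, 1.84 and 3.85 CPM. The groups stood apart by 2.53-fold at their nearest libraries. The log2 fold change was 3.55 ± 1.76 (SE), and it ranged from 2.97 to 5.10 as each library was left out. The basal and myoepithelial markers, which stratified epithelium shares in part, showed 0 called genes among 5 tested and summed to between 109 and 204 CPM against between 129.8 and 256 CPM. Krt14, a keratin of basal cells, was at 64.7 ± 31.6 and 108 ± 52.7 CPM (adjusted p = 0.489).

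Levels of different connexins can be compared only per length, so CPM were divided by exonic kilobases. On that scale Gja4 led the libraries labelled WT with 202 ± 75.6 CPM per kb, followed by Gjc1 with 50.8 ± 19.0, Gjb2 with 10.8 ± 3.93, Gja1 with 8.98 ± 3.83, Gja5 with 0.411 ± 0.644 and Gjb5 with 0.184 ± 0.217 CPM per kb. With the WT label Gja4 lay above Gjc1, and Gjc1 above Gjb2, without overlap, while Gjb2 and Gja1, and Gja5 and Gjb5, overlapped. In the libraries labelled mPGES-1 KO the order was Gjb2 (30.9 ± 7.18), Gja1 (22.7 ± 1.99), Gja4 (8.95 ± 14.8), Gjc1 (2.32 ± 0.63), Gjb5 (2.17 ± 1.07) and Gja5 (0.0172 ± 0.0161 CPM per kb). There Gjb2 and Gja1 overlapped. The Gja4 level ran from 0 to 26.0 CPM per kb and so across those of Gja1, Gjc1, Gjb5 and Gja5. It also overlapped that of Gjb2, which was lowest in mPGES-1 KO replicate 1 at 22.6 CPM per kb. Gjc1 and Gjb5 overlapped too, while Gja5 lay below Gjb5 in every library. The place of Gja1 depends on its annotation, whose exons of all transcripts join to 10257 bases while the longest single transcript has 3889. Per kilobase of longest transcript Gja1 stood above Gjb2 in both groups, at 23.7 ± 10.1 against 10.8 ± 3.93 and at 59.7 ± 5.25 against 30.9 ± 7.18 CPM per kb.

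Summed over the 12 connexin genes in the table, these levels came to 281 ± 82.9 CPM per kb in the libraries labelled WT and 101 ± 39.2 in the group labelled mPGES-1 KO. Gja4 and Gjc1 made up 88.1%, 94.8% and 82.8% of that sum in WT replicates 1 to 3, and 4.54%, 3.09% and 19.4% in mPGES-1 KO replicates 1 to 3. Gja1 and Gjb2 made up 7.04%, 3.95% and 12.6%, and 65.6%, 61.7% and 41.7%. On this scale the connexin sum of the libraries labelled WT was thus mostly Gja4 and Gjc1, and mPGES-1 KO replicate 3 lay between the groups for both pairs without reaching the WT range.

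**Figure D2:**
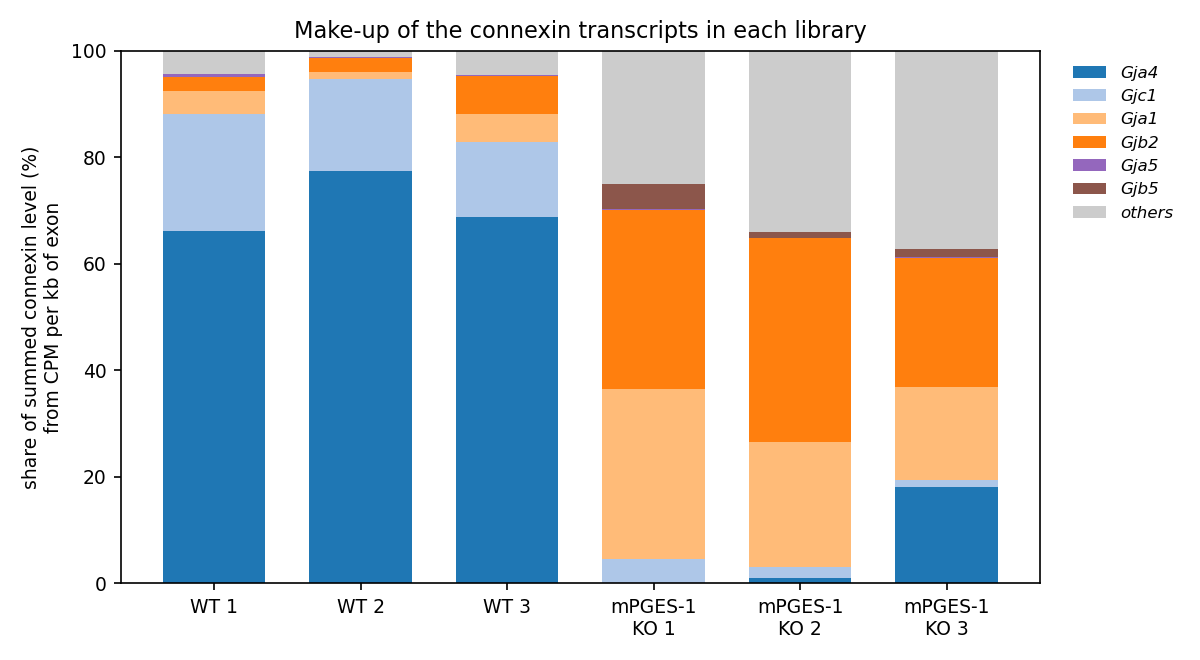
Share of the 6 connexin genes, and of all others together in grey, in the summed connexin level (CPM per kb of exon) of each library, as stacked bars that reach 100%. Gja4 and Gjc1 fill 82.8% to 94.8% of the libraries labelled WT and 3.09% to 19.4% of those labelled mPGES-1 KO.

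Of the 14 other connexin genes listed, 6 had rows and 5 could be tested: 0 rose and 0 fell in edgeR's quasi-likelihood test, 1 had an unadjusted p under 0.05, and the median log2 fold change was 0.22. The Wald test of DESeq2 called 1 of them and limma-voom 0. Gjb1, best known from liver and myelinating Schwann cells, had 98.0% of its WT counts in replicate 3, and Gjb6, the partner of Gjb2 in the inner ear, was at 0 in WT replicate 3 and mPGES-1 KO replicate 3. Gja6 had 219 of its 220 counts in the libraries labelled mPGES-1 KO in replicate 1 and was too low for the test. Panx1, which encodes the pannexin channel of most cell types, was the single one of 3 pannexins with a row and differed by less than the spread between libraries, at 14.9 ± 13.6 and 15.8 ± 2.66 CPM (adjusted p = 0.976).

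Gja4 and Gjb5 lie near each other on the minus strand of chromosome 4. In GENCODE M21 on GRCm38, Gja4 takes 127311421 to 127314039 and Gjb5 127354809 to 127358181, so that 46761 bases hold both. Their levels nevertheless differed in opposite directions, with log2 fold changes of -4.49 and 3.55. mPGES-1 KO replicate 1 held the most Gjb5 of its group and no Gja4. Gjb2 is on chromosome 14, where 18600 bases part Gjb6 from it (Gjb2 takes 57098600 to 57104702, minus strand). Gjb6 did not share the difference of Gjb2, with 2.98 ± 3.45 and 2.97 ± 4.18 CPM. Gja1 lies apart on chromosome 10 (56377330 to 56402513, plus strand), Gjc1 on chromosome 11 (102799579 to 102819700, minus strand) and Gja5 on chromosome 3 (96904693 to 97077416, plus strand).

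The genes share their build as well as their family. The annotated coding part of Gja1, Gja4, Gjb2, Gjb5 and Gjc1 lies in a single block of 1146, 999, 678, 813 and 1188 bases, and that of Gja5 in 2 blocks when all its transcripts are joined. Between pairs of the 6 genes, 15 in all, coding sequences were 58.1% to 65.6% identical over their aligned bases. The most alike pair was Gja5 and Gjb2, and the least alike was Gja5 and Gjc1. Among the 5 fitted genes the most alike were Gjb2 and Gjb5 (64.2%), both higher with the mPGES-1 KO label, while the alpha genes Gja1 and Gja4 (62.2%) lay on opposite sides of the contrast.

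Scaffold, adhesion and trafficking partners of connexins changed in both directions. Of 22 tested, 2 rose, 1 fell and 19 did not pass, with a median log2 fold change of 0.29. By direction, 1.2% of all genes rose and 1.56% fell. Cdh1, the epithelial cadherin whose contacts precede gap junction assembly and one of the 18 luminal markers above, rose from 42.3 ± 15.8 to 203 ± 28.9 CPM (adjusted p = 0.0233). Dbn1, the actin-binding drebrin that holds Cx43 at the membrane, fell from 136, 221 and 159 CPM to 36.2, 18.9 and 47.1 CPM (log2 fold change -2.34 ± 0.40 SE, adjusted p = 0.0302). Cdh2, the cadherin of mesenchymal cells, was at 5.37 ± 5.47 and 0.622 ± 0.299 CPM and did not pass (adjusted p = 0.236).

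Of 17 tested kinases and phosphatases that act on Cx43, 1 rose, 0 fell and 16 did not pass, with a median of -0.03. Ppp2ca, the catalytic subunit of a phosphatase that dephosphorylates Cx43, rose from 258 ± 25.8 to 801 ± 186 CPM (log2 fold change 1.63 ± 0.28 SE, adjusted p = 0.0296), but 41.3% of its exonic bases are shared with other annotated genes on either strand, so its value is uncertain. The catalytic subunits of the cAMP-dependent kinase, to which PGE2 signals through cAMP, had opposite signs and neither passed. Prkacb was at 110 ± 51.0 and 37.3 ± 2.26 CPM (adjusted p = 0.0887) and Prkaca at 22.98 ± 10.02 and 58.4 ± 12.6 CPM (adjusted p = 0.119). Cdk1, a mitotic kinase, was at 22.8 ± 10.6 and 48.8 ± 34.9 CPM (adjusted p = 0.470).

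Of 14 tested transcription factors described at connexin genes, 0 rose, 1 fell and 13 did not pass, with a median of -0.09. Tbx2, a T-box repressor known at the Gja1 promoter, fell from 45.8, 252 and 121 CPM in WT replicates 1 to 3 to 6.99, 6.50 and 1.30 CPM across mPGES-1 KO replicates 1 to 3 (log2 fold change -4.83 ± 0.86 SE, adjusted p = 0.0336). WT replicate 2, the library lowest in Gja1, was the highest in Tbx2. The part of Tbx2 in the Gja1 level was not tested. Mef2c, a muscle transcription factor, was at 82.5 ± 32.3 and 15.7 ± 8.77 CPM (adjusted p = 0.0571). The T-box factors Tbx18, of mural cells, and Tbx5, of the heart, did not pass either (adjusted p = 0.119 and 0.510). Each of the calls of Cdh1, Dbn1, Ppp2ca and Tbx2 was lost with any single library left out except WT replicate 1, with adjusted p up to 0.139. Their direction held in all 13 alternative fits.

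**Figure D3:**
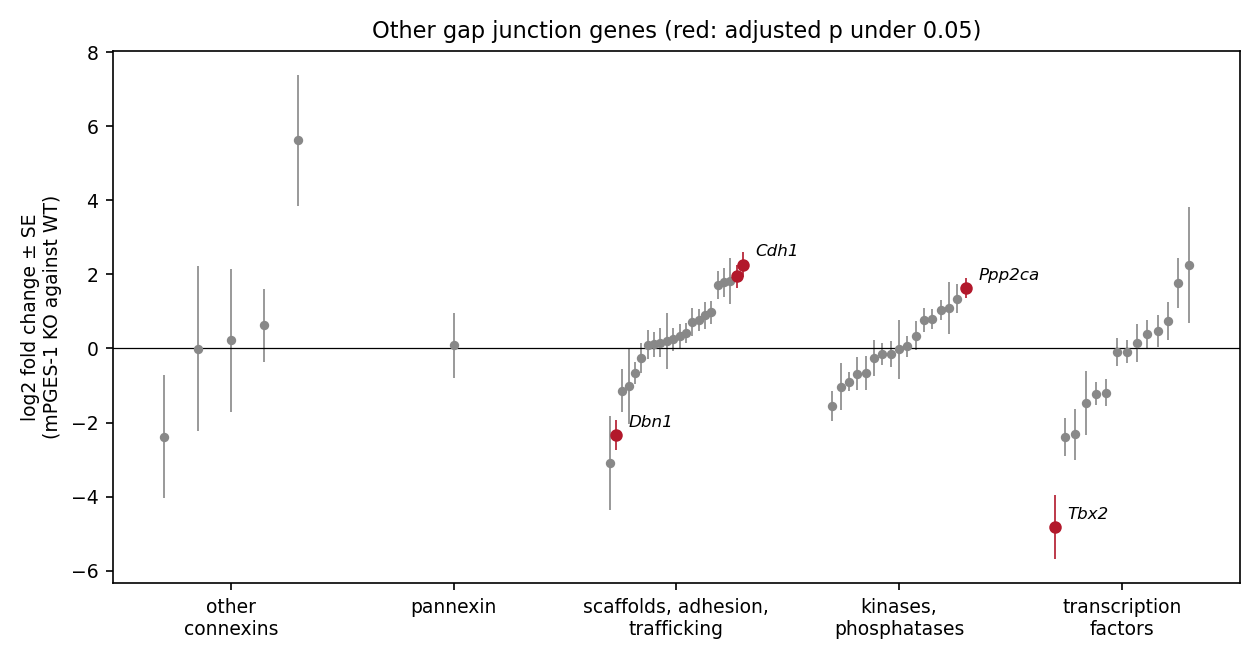
Log2 fold change ± SE (mPGES-1 KO against WT) of each tested gene of the other connexins, the pannexins and the 3 lists of connexin partners, ordered within each list. Red points passed an adjusted p of 0.05 in edgeR's quasi-likelihood test: among them Cdh1 and Ppp2ca above 0, Dbn1 and Tbx2 below 0, and 0 among the other connexins.

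For each connexin the 3 genes with the most similar course over the 6 libraries were taken among 10936 genes, by the root mean square difference (RMSD) of log2(CPM + 0.5) around each gene's own mean. They were picked for likeness, so their genotype difference is a given. Nearest to Gja4 were Kcnj8, Cox4i2, a respiratory chain subunit, and Des, the intermediate filament desmin, at RMSDs of 1.28, 1.43 and 1.51. Kcnj8 and Des are also among the pericyte and smooth muscle markers listed. The nearest gene to Gja4 was further off than that of any other connexin here, while the own SD of Gja4 on that scale was the widest, at 3.81. Nearest to Gjc1 were Ndst3, a heparan sulphate modifying enzyme, Itga1, the collagen-binding integrin subunit, and Ntm, a neural adhesion protein, at 0.22, 0.24 and 0.28 (own SD 2.21). Nearest to Gjb2 were Xdh, the xanthine oxidoreductase of milk fat secretion, Cdk2ap1 and Peli1 at 0.08, 0.12 and 0.15 (own SD 0.84). Xdh stood at 43.5, 54.5 and 77.7 CPM in WT replicates 1 to 3 and at 127, 178.1 and 178.2 CPM across mPGES-1 KO replicates 1 to 3, ordered within each group as Gjb2 was. Among the nearest to Gja1 were mt-Nd2, a mitochondrially encoded subunit, and Sqor at 0.16 and 0.18 (own SD 0.84). Nearest to Gja5 were Tiam2, Aspn and Ddx31, and to Gjb5 Pip5k1b, Adnp2 and Nav2. The choice moved with the pseudocount: of the 3 nearest genes at 0.5, Gja1 kept 2 at a pseudocount of 0.1 and 3 at 2, Gja4 kept 1 and 2, Gja5 2 and 0, Gjb2 3 and 2, Gjb5 0 and 0, and Gjc1 1 and 1.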

How the data were processed

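RNA was measured in 6 libraries of sorted cells, 3 per genotype as the labels give it. Per the labels' protocols, cDNA was made by template switching, amplified by 16 PCR cycles and read as single reads of 75 cycles, with no molecular identifier or strand setting named, so floors cover counting error only. The authors deposited raw read counts per gene symbol, not normalized. FastQC 0.11.5, STAR and mm10 are named in the submitters' processing notes; for the counting program and its annotation nothing is given in the sources used here. Each column matched 1 sample by its label, 0 columns were without a sample, and no 2 libraries held identical values.

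The model was fitted by edgeR 4.0.16 under R 4.3.3 (filterByExpr, TMM, robust estimateDisp, glmQLFit and glmQLFTest) over all 6 libraries without covariates, two-sided, with Benjamini-Hochberg adjustment over 16543 genes and a call at an adjusted p under 0.05. An SE is the absolute log2 fold change over the square root of F. The test was tested on simulated data. Whether each library is its own animal is not stated in the labels; p-values therefore measure only how these libraries vary, and that variation may be technical. Alternatives used DESeq2 1.42.0, limma 3.58.1 and the settings listed in the closing section. The lengths of coding sequence and longest transcript were added after the data were seen.

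The connexins, the gene lists and the tests were chosen with earlier results of these data known. Named genes were Ptges, all connexins and pannexins, up to 6 called members of each partner list, filled to 4 by largest change, the 3 most abundant genes of each marker list, and the 3 genes most like each connexin at a mean of at least 5 CPM, leaving out predicted genes. Some of the genes so chosen are not reported here. Foxa1, Cdh5, Tie1, Sox17 and Sox18 were named after their values were seen, as markers at 0. Ccn3 was found under its older symbol Nov. Positions and lengths were read from GENCODE M21 (GRCm38, of which mm10 is another name) and sequences from RefSeq on GRCm38.p6.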

Additional observations from a re-analysis of the deposited data

How the results depend on the processing

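Depth limits Gja5, Gja6 and Gjb5, which had 0 counts in at least 1 library each. Of 65 refitted connexin fold changes, 60 moved by less than the spread between libraries and 0 changed sign. Gja4 moved to -8.44 in limma-voom and -7.78 with the replicate block (leaving out libraries: -8.96 to -3.90), and Gjb5 to 4.41 with the replicate block (2.97 to 5.10). Per coding length, Gja4 and Gjc1 made up 78.1% in WT, and Gja1 and Gjb2 18.5% in WT and 77.3% in mPGES-1 KO. Protein lengths were not used here, so that alternative was not run.

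Genes called higher and lower numbered 198 and 258, and 1005 and 1103 in DESeq2, 988 and 977 in limma-voom, 480 and 633 at an adjusted p under 0.1, and 0 and 0 with the replicate block. Leaving out libraries gave 0 to 327 and 0 to 241: 0 and 1 without WT replicate 2, 0 and 0 without mPGES-1 KO replicates 2 or 3, 57 and 93 without WT replicate 3, 55 and 105 without mPGES-1 KO replicate 1. Scaffold partners called higher were 4 with a filter of 1 CPM in 3 libraries, 6 in DESeq2, 5 in limma-voom, 4 at 0.1 and 0 with the block (0 to 2 without a library), and called lower 2 in DESeq2 and 0 with the block (0 to 1). Kinases and phosphatases called higher were 3 in DESeq2, 3 in limma-voom, 2 at 0.1 and 0 with the block (0 to 1), and called lower 1 in DESeq2, 1 in limma-voom and 1 at 0.1 (0 to 1). Transcription factors called higher were 1 in limma-voom, and called lower 2 with the 1 CPM filter, 5 in DESeq2, 4 in limma-voom, 3 at 0.1 and 0 with the block (0 to 1). Of the other connexins DESeq2 called 1 higher. The cause of these differences was not tested.

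Deviations of same-numbered libraries correlated at -0.06 to 0.03, so the counts showed no sign that replicate numbers pair the samples. Why calls were lost under the block was not tested. With the block, 0 of the pericyte and 0 of the luminal markers were called, and adjusted p was 0.0896 to 0.112 for Cdh1, Dbn1, Ppp2ca and Tbx2 and 0.0861 and 0.0803 for Krt18 and Epcam. Among 54 other named genes, 80 of 754 values lost and 46 gained the call. Signs turned, never at a called value, for Gjb6 (0.044 with DESeq2 size factors, 0.010 with library size, 0.065 with no filter, 0.065 with the 1 CPM filter, 0.046 in DESeq2, 0.90 in limma-voom) and, as libraries were left out, for Gjb6 (-2.29 to 1.47), Gjb1 (-0.30 to 5.38), Panx1 (-0.42 to 0.96), Krt17 (-0.58 to 0.60), Tek (-0.69 to 2.57), Dcn (-0.0012 to 0.82) and Cd68 (-0.046 to 1.92).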
